A study of Homo sapiens with 12 samples.

Results

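The HSP70 and heat shock genes described here are HSPA1A, HSPA1B, HSPA1L, HSPA2, HSPA6, HSPA8, DNAJB1, HSPB1, HSPH1 and HSP90AA1, 10 of the 36337 gene names on the array. They are read by 19 of its 50599 probes, and every probe whose gene name was one of these was taken. The genes were chosen on the higher HSPA1A signal that had been seen with 5-aza-dC in the control clones, so their values in that contrast are a description and carry no test. The question was whether HSPA1A stood alone or moved with the rest of the heat shock response. Colo320DM, a human colorectal cancer cell line, was transfected with the control plasmid pcDNA6.2-GW/EmGFP-miR-neg or with a TET1 knockdown vector that expresses an artificial microRNA, and stable clones were grown out under G418. The 3 control clones and the 3 TET1 knockdown clones were each measured once without drug (mock) and once after 72 h with 1 µM 5-aza-dC, a DNA methyltransferase inhibitor that was replaced with the medium every 24 h. This gave 4 groups of 3 one-colour arrays. Control and knockdown clones of the same number are different clones, and each array is a single clone. Per the study's text, its knockdown clones carried either of 2 artificial microRNAs, KD1 and KD2 the same one and KD3 the other, which the labels of these arrays do not repeat.

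HSP70 proteins bind exposed hydrophobic stretches of unfolded proteins and release them in an ATP-driven cycle that HSP40 (DNAJ) proteins start and nucleotide exchange factors such as HSPH1 reset. HSP90 and the small heat shock proteins act beside them, on late folding steps and as holding chaperones. On heat or other proteotoxic stress the transcription factor HSF1 forms trimers, binds inverted GAA repeats called heat shock elements and switches on HSPA1A, HSPA1B, HSPA6, DNAJB1, HSPB1, HSPH1 and HSP90AA1 together. HSPA8 is the constitutive cytosolic HSP70, and HSPA1L and HSPA2 are the forms best known from testis.

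Signals are log2 values relative to the 75th percentile of the same array, so the value 0 is the level of a well expressed gene. The level of one probe cannot be set against that of another, and in bulk RNA a change in the share of cells that express a gene and a change in RNA per cell cannot be told apart. Per array, the probes that stood well above background made up 45.7% to 52.9%, and no spot was saturated. Arrays lay on 2 slides, unevenly: slide 2 held all 3 treated control arrays, mock control 3 and treated knockdown 2, and slide 1 held the other 7. TET1, the targeted gene, read 4.56, 4.23 and 4.67 in the mock control clones and 3.59, 3.51 and 3.57 in the mock knockdown clones. After 5-aza-dC it read 4.06, 4.42 and 4.16 in control clones against 2.98, 4.31 and 3.35 in knockdown clones, where knockdown clone 2 lay within the control values on this brightest probe. On the other TET1 probes treated knockdown clone 2 lay below all 3 treated control clones, which shared its slide, with mean differences of -1.13 and -1.06. Of the colorectal and epithelial markers, CDX2, KRT8 and KRT18 were well above background on all 12 arrays, while CDH1 was above it on none and VIL1 on 1. By limma TET1 was not called between clone types, with or without drug (adjusted p = 0.276 and 0.335 on its brightest probe). The leukocyte marker PTPRC was well above background on all 12 arrays too. With 5-aza-dC, KRT19 was called higher in both clone types, EPCAM in knockdown clones, and KRT20, CHGA, ENO2 and COL1A1 in control clones (limma, adjusted over all probes).

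The sequences that bear on the comparison are the stretches just before the transcription starts. HSPA1A and HSPA1B share nearly the same one and are both HSF1 targets, HSPA6 is the relative that is made almost only after heat, and HSPA2 is not known as a heat-inducible gene. They are shown 5′ to 3′ on the plus strand of GRCh38.p14, from RefSeq, as the 250 bases up to the start: chr6:31815293-31815542 for HSPA1A, chr6:31827488-31827737 for HSPA1B, chr1:161524290-161524539 for HSPA6 and chr14:64540491-64540740 for HSPA2. Capitals mark every match to the heat shock element cores GAANNTTC and TTCNNGAA, the CCAAT box (printed as ATTGG where it lies on the other strand) and the TATA box TATAAA, searched on both strands.
HSPA1A: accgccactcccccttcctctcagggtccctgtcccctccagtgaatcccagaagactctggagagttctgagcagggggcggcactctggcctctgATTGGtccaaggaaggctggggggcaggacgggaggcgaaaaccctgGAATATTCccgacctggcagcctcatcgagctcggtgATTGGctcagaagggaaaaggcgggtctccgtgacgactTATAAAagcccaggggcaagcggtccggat
HSPA1B: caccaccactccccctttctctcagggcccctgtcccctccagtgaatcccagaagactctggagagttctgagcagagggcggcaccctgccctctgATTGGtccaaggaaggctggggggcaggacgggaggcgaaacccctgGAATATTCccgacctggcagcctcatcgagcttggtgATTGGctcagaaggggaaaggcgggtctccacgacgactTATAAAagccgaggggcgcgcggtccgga
HSPA6: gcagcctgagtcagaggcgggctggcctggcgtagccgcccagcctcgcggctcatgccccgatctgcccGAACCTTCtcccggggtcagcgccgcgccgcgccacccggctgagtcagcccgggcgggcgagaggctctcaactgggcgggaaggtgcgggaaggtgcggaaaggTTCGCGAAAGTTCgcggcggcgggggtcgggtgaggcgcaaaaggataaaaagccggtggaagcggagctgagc
HSPA2: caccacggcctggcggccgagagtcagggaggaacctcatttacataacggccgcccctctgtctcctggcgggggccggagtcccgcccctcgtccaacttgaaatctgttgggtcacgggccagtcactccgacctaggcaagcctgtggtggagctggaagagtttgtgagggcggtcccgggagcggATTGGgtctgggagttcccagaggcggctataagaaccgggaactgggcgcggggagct

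Aligned end to end, these 250 bases were 93.6% identical between HSPA1A and HSPA1B, against 50.8% for HSPA1A and HSPA2 and 47.7% for HSPA1A and HSPA6. The match GAATATTC began 106 bases before the start of HSPA1A and 105 before that of HSPA1B, and TATAAA lay 30 and 29 bases before them. HSPA6 held GAACCTTC 180 bases before its start and an overlapping pair, TTCGCGAA and GAAAGTTC, at 74 and 69. In HSPA2 a single ATTGG, 59 bases before the start, was the one match. RefSeq gave 13 windows of 300 bases (250 before and 50 after the start) for the 10 genes. A heat shock element core was present in 9 windows, of 8 genes (not HSPA2 or HSPH1), against 13.5% of 35114 promoters. GAANNTTC alone was in 6.77% and TTCNNGAA in 7.74% of these promoters. TATAAA was in 3 windows, of 3 genes, against 11.5% of promoters, and CCAAT in 9 windows, of 7 genes, against 34.6%. The windows of HSPA1A and HSPA1L share 241 bases. The core, CCAAT and TATAAA matches of HSPA1A lie in that stretch and are counted for HSPA1L too. The 300-base windows of HSPA1A, HSPA1B, HSPA2 and HSPA6 held 15, 18, 21 and 33 CG dinucleotides, against a median of 14 over all promoters. A match describes the letters and not a bound site, and neither binding nor DNA methylation was measured by these arrays.

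HSPA1A, the main inducible HSP70, was not well above background on any of the 6 mock arrays and was well above it on all 6 treated ones. In the mock control clones its log2 signal was -6.37, -6.49 and -5.83, and with 5-aza-dC it was 2.18, 1.33 and 1.74. In the mock knockdown clones it was -6.07, -5.93 and -6.41, and with 5-aza-dC 0.93, 0.88 and 0.23. Treated and mock arrays stood far apart in both clone types, and no clone went against the others. The processed signal before scaling, as the geometric mean over the spots of the probe, lay between 3.61 and 4.86 units on mock arrays and between 413.2 and 1605 on treated ones. The probe is printed 10 times on each array. All 10 spots were above background on each treated array, and none of the 9 or 10 usable spots was on a mock array.

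Because the mock level is a background reading, the fold for HSPA1A is given as a lower bound. It sets the mean log2 value of the treated arrays against the mean, over the mock arrays, of the higher of the probe's own value and the lowest value of any probe well above background on that array. By that measure HSPA1A was at least 59-fold higher with 5-aza-dC in control clones and at least 24.7-fold higher in knockdown clones. The genes were chosen on the contrast in control clones, but with earlier results of these data known. The knockdown arrays are therefore not independent support, and the limma adjusted p there was 0.000199. HSPA1A entered that test through the treated arrays alone, since a probe had to be well above background on 3 of the 6 arrays, so a probe of this pattern had to differ and the bound and the values of the arrays are the result. Within slide 1, with 2 treated and 3 mock knockdown arrays, the difference from the background reading was 6.72, and within slide 2, with 3 treated control arrays and 1 mock one, it was 7.58. Of all 50599 probes, 235 (0.464%) were well above background on all 6 treated arrays and on no mock array, and 3 (0.00593%) the other way round. HSPA1A was the one heat shock gene of the 10 with that pattern. The probe lies at chr6:31785491-31785550 in hg19 per the array's design, and its sequence begins gagcttcaagactttgcatttcctagtatt, while the HSPA1B probe begins gtttcgttccctttaaatgaatcaacactg. The longest run of letters shared by both whole probes was 7 bases. Probes were compared only with the probes of the other genes of the 10, not with whole transcripts. Whether the HSPA1A probe also reads other RNA was not tested.

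**Figure D1:**
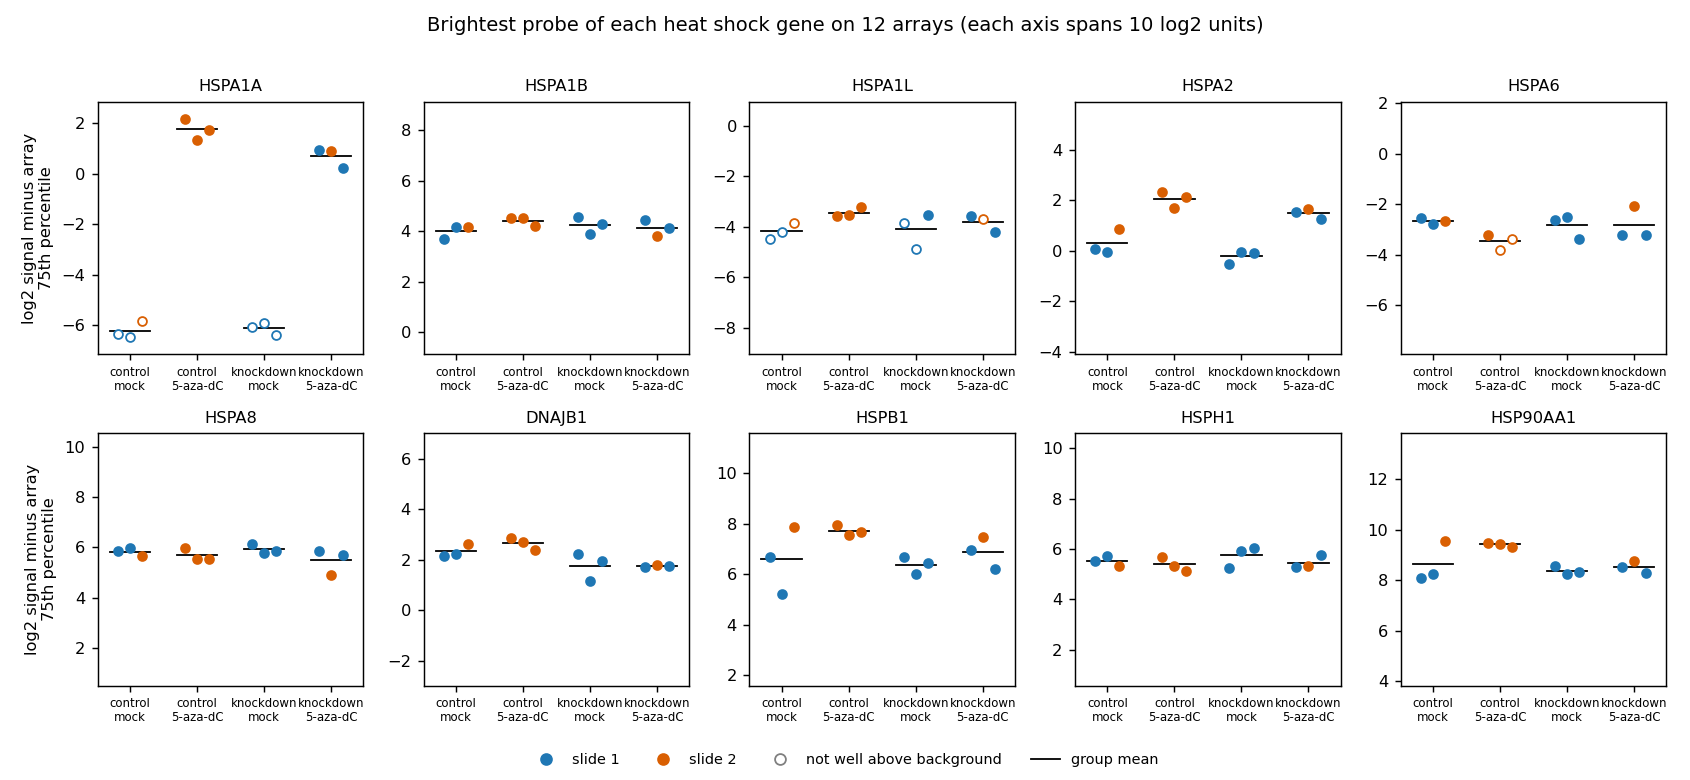
Log2 signal relative to the array's 75th percentile (y axis) of the 10 heat shock genes on each of the 12 arrays, by group (x axis), coloured by slide, with group means as bars and open points where the probe was not well above background. HSPA1A moved from between -6.49 and -5.83 on the mock arrays to between 0.23 and 2.18 on the treated ones, HSPA2 moved in the same direction, and HSPA1B lay between 3.71 and 4.55 on all arrays.

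HSPA1B encodes nearly the same protein as HSPA1A and starts 12195 bases away on chromosome 6. It was well above background on all 12 arrays, mock ones included. In the control clones its log2 signal was 3.71, 4.15 and 4.17 without drug and 4.51, 4.54 and 4.20 with it. In the knockdown clones it was 4.55, 3.90 and 4.29 without drug and 4.45, 3.82 and 4.13 with it. The treated control arrays lay just above the mock ones, and in knockdown clones mock and treated arrays overlapped. The mean differences were 0.41 in control clones (0.25 within slide 2) and -0.12 in knockdown clones, with a 95% confidence interval of -0.76 to 0.53 that holds no 2-fold change (limma adjusted p = 0.904). All 3 control clones moved up, by 0.80, 0.39 and 0.04, and all 3 knockdown clones moved down, by 0.10, 0.08 and 0.16.

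HSPA1L starts on the opposite strand 260 bases from HSPA1A, so that their 300-base windows share 241 bases. It is the HSP70 gene of this locus that heat does not switch on. Its probe was dim: without drug it was well above background on 1 array, knockdown clone 3, and with drug on 5 of 6. In control clones the log2 signal was -4.48, -4.20 and -3.87 without drug and -3.57, -3.54 and -3.22 with it. The mean difference from these background readings was 0.74 (0.43 within slide 2). In knockdown clones it was -3.85, -4.88 and -3.54 without drug and -3.59, -3.68 and -4.22 with it. There the groups overlapped, and the difference was 0.26 (95% confidence interval -0.69 to 1.20, limma adjusted p = 0.851).

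HSPA2, best known for its role in male germ cells, was the other gene called with the drug, and it was well above background on all 12 arrays. In control clones its log2 signal was 0.09, -0.06 and 0.87 without drug and 2.32, 1.71 and 2.12 with it. In knockdown clones it was -0.50, -0.04 and -0.09 without drug and 1.56, 1.66 and 1.28 with it. All treated arrays stood above all mock arrays, in both clone types. The difference was 1.75 in control clones (1.19 within slide 2). In knockdown clones HSPA2 rose by 1.71 (SE 0.23, 95% confidence interval 1.17 to 2.25, a 3.27-fold change, limma adjusted p = 0.0132), and the value within slide 1 was 1.63. This call was lost when any 1 of the 3 knockdown clones was left out, with adjusted p between 0.132 and 0.868 (with a minimum of 2 arrays above background, 0.0488 without knockdown clone 2 and 0.188 and 0.312 without the others), and in the t-test named in the study's methods (adjusted p = 0.0712). The size of the change stayed between 1.53 and 1.88 without 1 clone.

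HSPA6 showed no increase beyond the spread between clones. Its brightest probe read -2.56, -2.78 and -2.67 in mock control clones and -3.23, -3.80 and -3.38 after treatment, where 2 of the 3 values were no longer well above background. In knockdown clones it read -2.62, -2.52 and -3.37 without drug and -3.20, -2.08 and -3.23 with it, a difference of 0.00 (95% confidence interval -0.97 to 0.97, limma adjusted p = 1.00). A second probe differed by -0.14 in control and -0.26 in knockdown clones, and the remaining one was above background on no array. HSPA6 is the HSP70 gene that is nearly silent without heat, and its treated values in control clones lay below the mock values.

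HSPA8, the constitutive form, read 5.86, 5.96 and 5.65 in mock control clones and 5.98, 5.54 and 5.53 with drug on its brightest probe. In knockdown clones it read 6.15, 5.79 and 5.87 without drug and 5.88, 4.90 and 5.71 with it. Values overlapped in both clone types, and the difference in knockdown clones was -0.44 (95% confidence interval -1.17 to 0.30, limma adjusted p = 0.703). The other HSPA8 probes went lower. In control clones one moved from -0.38, 0.38 and -0.57 to -1.46, -1.95 and -1.69, and the other from -1.80, -1.29 and -2.24 to -3.11, -5.26 and -3.25. In knockdown clones they differed by -0.58 and -1.31 (limma adjusted p = 0.648 and 0.224). The design names both by Ensembl transcripts that were not matched to RefSeq here, so the transcript of HSPA8 that they read is not given.

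The co-chaperones gave no call with the drug. DNAJB1, the main HSP40 partner of inducible HSP70, read 2.15, 2.23 and 2.63 in mock control clones and 2.86, 2.72 and 2.38 with drug. In knockdown clones it read 2.22, 1.16 and 1.93 without drug and 1.71, 1.81 and 1.75 with it. The groups overlapped in both clone types, with a difference of -0.01 in knockdown clones (95% confidence interval -0.74 to 0.72, limma adjusted p = 0.993). HSPH1, the nucleotide exchange factor, lay between 5.13 and 6.04 on all arrays. It differed by -0.14 in control and -0.29 in knockdown clones (95% confidence interval -0.97 to 0.39, limma adjusted p = 0.771), and its second probe by -0.44 and -0.46.

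HSPB1, the small heat shock protein HSP27, read 6.67, 5.22 and 7.88 in mock control clones and 7.96, 7.57 and 7.68 with drug on its brightest probe. HSP90AA1, the inducible cytosolic HSP90, read 8.08, 8.27 and 9.58 in mock control clones and 9.50, 9.46 and 9.32 with drug. On these brightest probes mock control 3 stood with the treated arrays, and the values followed the slide. HSPB1 lay between 5.22 and 6.96 on slide 1 and between 7.50 and 7.96 on slide 2, and HSP90AA1 between 8.08 and 8.58 and between 8.78 and 9.58. The differences in control clones were 1.15 for HSPB1 and 0.78 for HSP90AA1 over all arrays, and -0.14 and -0.15 within slide 2. In knockdown clones they were 0.51 for HSPB1 (95% confidence interval -0.39 to 1.40, limma adjusted p = 0.708) and 0.16 for HSP90AA1 (-0.37 to 0.69, adjusted p = 0.833). Other probes of the same genes moved less in control clones, by 0.09 and 0.46 for HSPB1 and by 0.01 and 0.16 for HSP90AA1. On those other probes the ranges of both slides overlapped, as for the second HSPB1 probe (4.86 to 6.62 on slide 1 and 5.45 to 5.79 on slide 2) and the second HSP90AA1 probe (6.51 to 7.04 and 6.19 to 7.11). The part of the slide in the brightest probes' values was not tested.

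**Figure D2:**
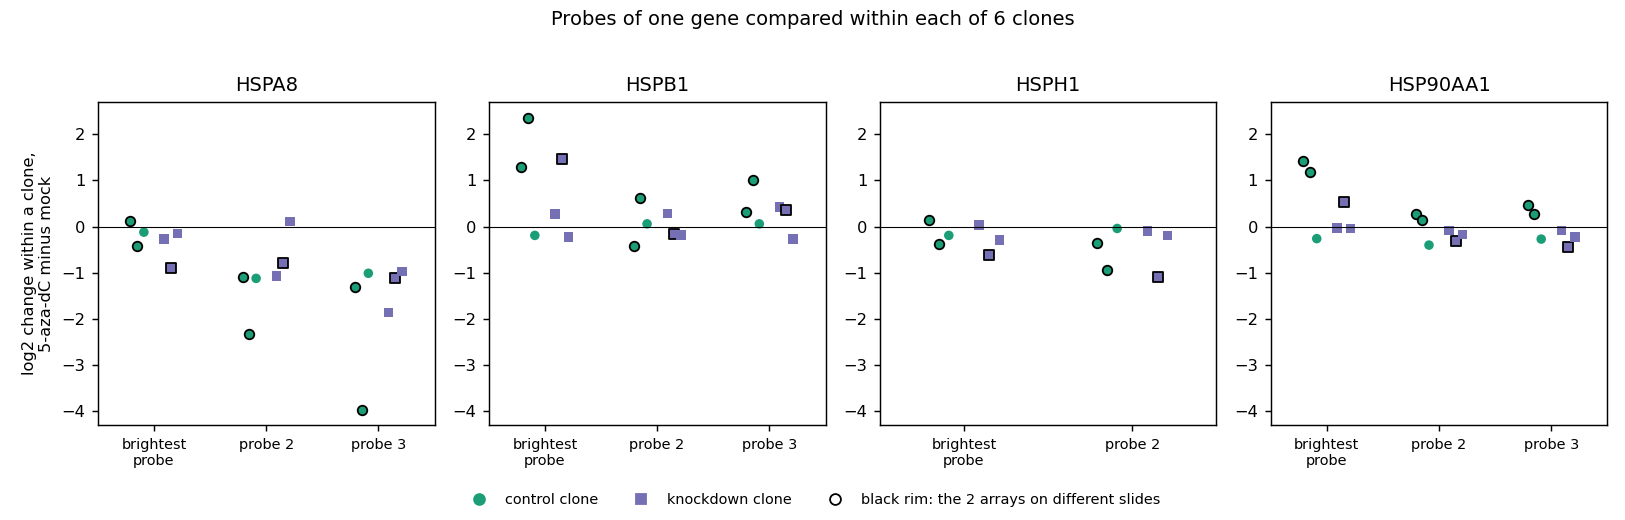
Log2 change with 5-aza-dC within each clone (y axis) for each probe (x axis) of HSPA8, HSPB1, HSPH1 and HSP90AA1, control clones as circles and knockdown clones as squares, with a black rim where the mock and treated array lay on different slides. The probes of HSPA8 spread from -0.14 to -2.10 in the mean of the control clones, and those of HSPB1 from 0.09 to 1.15.

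Counted by brightest probe, 2 of the 10 genes (HSPA1A and HSPA2) were called higher with 5-aza-dC in control clones and none lower, where 3.85% of all 24641 probes tested were called higher and 1.37% lower. Beyond the brightest probes, 1 other HSPA8 probe was called lower in control clones (-1.51). The control arrays chose the genes, and nothing is read from these calls. With quantile scaling or the array median as scale, HSPA6 was also called, lower. In knockdown clones the same 2 genes were called higher and none lower, where 2.03% of 25390 probes were called higher and 0.0118% lower. Of the 2, HSPA1A could be tested only because it was bright on the treated arrays. The methods' t-test called 1 of them, HSPA1A. No other gene of the 10 had an unadjusted p under 0.05 on its brightest probe in knockdown clones, against 9.15% of all probes tested. Another HSPA8 probe did (-1.31, limma unadjusted p = 0.008, adjusted p = 0.224). The median difference over the 10 genes was 0.08 in knockdown clones and 0.57 in control clones, against -0.09 and -0.02 over all probes. The control median mixes slides, since slide 2 held all 3 treated control arrays and 1 mock one. Within slide 2 the control differences were 7.58 for HSPA1A, 1.19 for HSPA2, 0.43 for HSPA1L and 0.25 for HSPA1B. The other genes lay between -0.80 (HSPA6) and 0.06 (HSPH1) there. For the 8 genes that were not called in knockdown clones, the upper limit of the 95% confidence interval was highest for HSPB1, at 2.64-fold, and for 6 of them it was under 2-fold. A p-value that misses the threshold does not show that a gene kept its level.

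**Figure D3:**
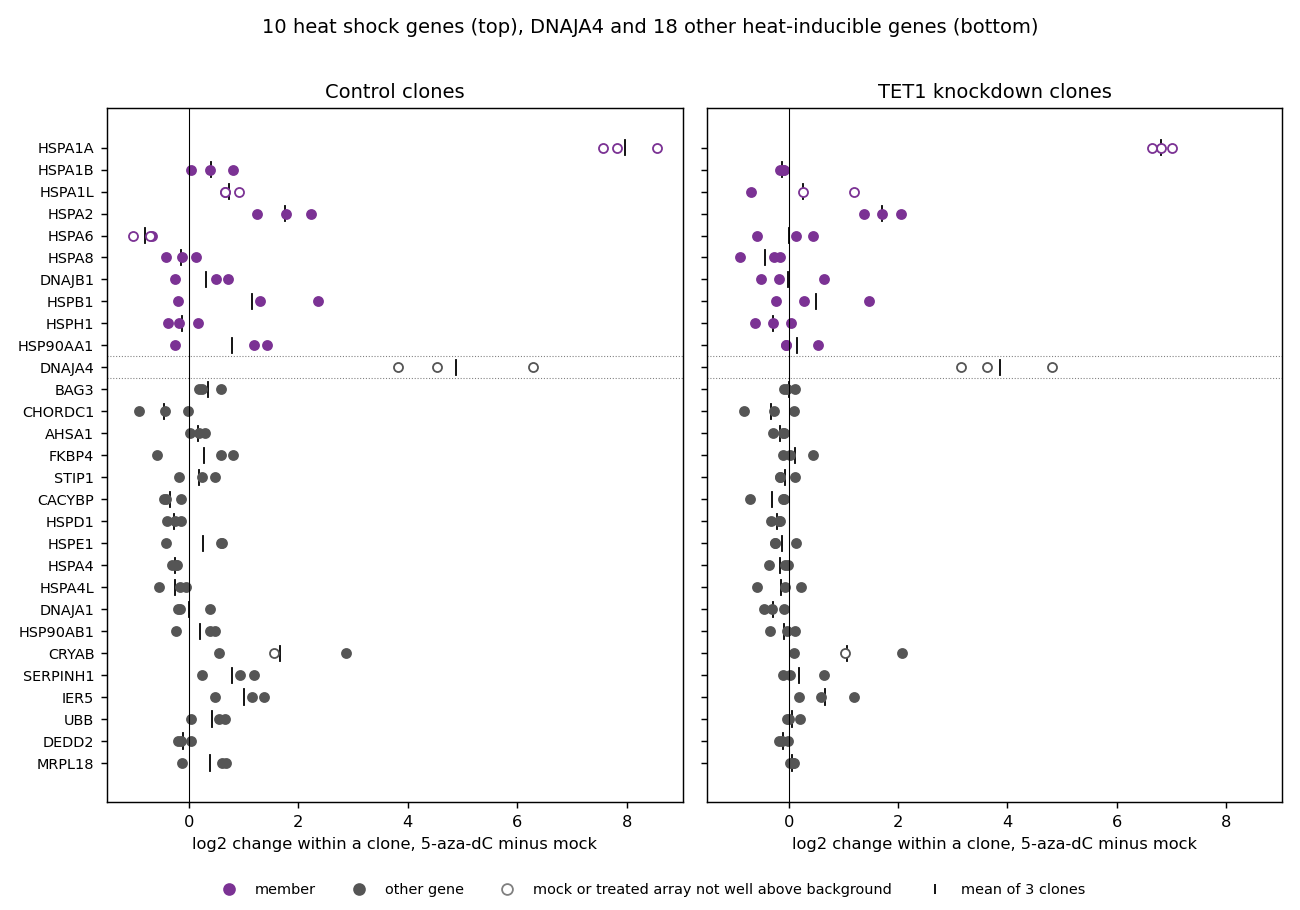
Log2 change with 5-aza-dC (x axis) of each clone, treated minus mock, for the 10 heat shock genes, DNAJA4 and 18 other heat-inducible genes, in control clones (left) and knockdown clones (right), with bars at the mean of 3 clones and open points where the mock or treated reading was at background. The HSPA1A changes lay between 6.64 and 8.55, those of HSPA2 between 1.26 and 2.23, and those of HSPA1B between -0.16 and 0.80.

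The wider heat shock response was read from 18 other heat-inducible HSF1 target genes. None was called with the drug in either clone type by limma or by the methods' t-test. Over all probes limma called 3.85% higher and 1.37% lower in control clones, and 2.03% and 0.0118% in knockdown clones. At such shares 18 genes could hold no call, so nothing is read from that count. Without control clone 3 SERPINH1, 1 of these 18 genes, was called. In control clones 2 and in knockdown clones 0 had an unadjusted p under 0.05, against 26.5% and 9.15% of all probes tested, and the median differences were 0.19 and -0.09. BAG3, a co-chaperone that follows HSF1 closely, differed by 0.34 in control and 0.00 in knockdown clones, the mitochondrial chaperonin HSPD1 by -0.27 and -0.22, and HSP90AB1 by 0.21 and -0.08. IER5, an HSF1 regulator, differed by 1.00 and 0.66, the collagen chaperone SERPINH1 by 0.79 and 0.19, and the small heat shock protein CRYAB by 1.66 and 1.06, none of them called. Within slide 2, against its 1 mock control array, the control differences were 0.35 for BAG3, -0.38 for HSPD1 and -0.22 for HSP90AB1. For IER5, SERPINH1 and CRYAB they were 0.81, 0.44 and 2.16. In knockdown clones the upper confidence limit of 16 of these 18 genes was under 2-fold, and the highest, of CRYAB, was 5.25-fold. HSF1 itself differed by 0.22 and -0.05 and HSF2 by -0.49 and -0.11, and no heat shock factor gene was called or had an unadjusted p under 0.05. Within slide 2 the control differences had the opposite sign, -0.33 for HSF1 and 0.11 for HSF2. Of 12 endoplasmic reticulum chaperone genes, which mark the unfolded protein response, none was called, 2 had an unadjusted p under 0.05 in control clones and 0 in knockdown clones, and the medians were 0.08 and 0.03.

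Among the chaperone families outside the 10 genes, none of 8 other HSP70 genes, of 20 HSP90, chaperonin and co-chaperone genes or of the small heat shock protein genes tested was called with the drug (limma). Over all probes 3.85% were called higher in control clones and 2.03% in knockdown clones. At an unadjusted p under 0.05 these lists held 1, 2 and 0 genes in control clones, where 26.5% of all probes passed it, and 1, 0 and 0 in knockdown clones, where 9.15% did. Of 12 other HSP40 genes 1 was called, DNAJA4, a co-chaperone encoded on chromosome 15. Without drug DNAJA4 stayed at background on all 6 arrays, with log2 signals between -6.11 and -4.48. With drug it was 0.18, -1.33 and -1.35 in control clones and -1.13, -2.27 and -1.32 in knockdown clones, all well above background. It was at least 9.85-fold higher in control clones (limma adjusted p = 0.00398) and at least 5.19-fold higher in knockdown clones (adjusted p = 0.0121). Like HSPA1A, DNAJA4 entered these tests through the treated arrays alone and so had to differ. Both calls were lost in the methods' t-test (adjusted p = 0.0583 in control and 0.149 in knockdown clones) and with replicate block and slide together (0.205 and 0.0515). In knockdown clones the call was also lost with normexp, which brought the fitted difference from 3.86 to 1.08 (0.127), and without any 1 clone (adjusted p up to 0.235 with a minimum of 2 arrays above background).

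The genes that surround HSPA1A on chromosome 6 were read as well. Of 6 tested neighbours, NEU1, a lysosomal sialidase, was called, in control clones, where 3.85% of all 24641 probes tested were called higher. It read 2.80, 2.81 and 2.73 in mock control clones and 4.27, 4.41 and 3.84 with drug, and 2.38, 2.31 and 2.44 in mock knockdown clones and 2.80, 3.13 and 2.96 with drug. Treated arrays stood above mock arrays in both clone types. NEU1 rose by 1.40 in control clones (SE 0.20, limma adjusted p = 0.0140), and the difference in knockdown clones was 0.59 (adjusted p = 0.382). The control call was lost without control clone 1 or 2 (adjusted p = 0.294 and 0.405), with the slide as a block (0.0723) and in the methods' t-test (0.0597). Within 1 slide the differences were 1.45 and 0.51. The interaction of clone type and drug for NEU1 was -0.81 (adjusted p = 1.00, unadjusted p = 0.00973). The differences in control and knockdown clones were 0.24 and -0.15 for EHMT2, -0.05 and 0.11 for C6orf48, -0.14 and -0.33 for LSM2, -0.49 and -0.34 for VARS and 0.21 and -0.04 for C6orf27, none called. SLC44A4 was too dim to be tested.

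**Figure D4:**
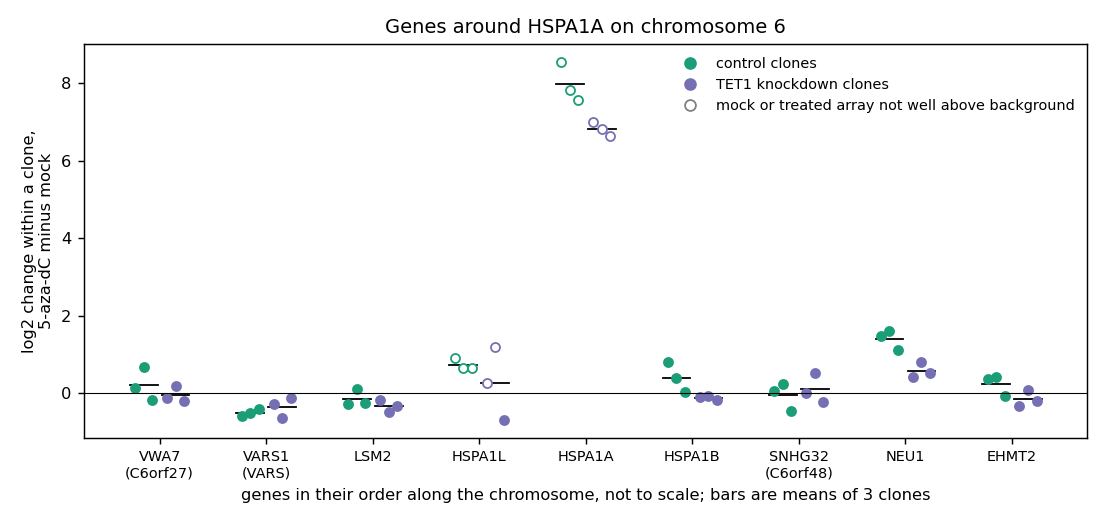
Log2 change with 5-aza-dC of each clone (y axis) for HSPA1A and the genes around it on chromosome 6 (x axis, in gene order and not to scale), with bars at the mean of 3 clones. HSPA1A changed by 6.64 to 8.55, while HSPA1B, the next HSP70 gene, changed by -0.16 to 0.80.

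Across the 12 arrays, as a description over points that share clones and slides, the log2 signal of HSPA1A had a Pearson correlation of 0.94 with HSPA2, 0.58 with HSPA1L and HSPB1, 0.52 with HSP90AA1, 0.31 with HSPA1B and 0.23 with DNAJB1. With HSPH1, HSPA6 and HSPA8 it was -0.40, -0.44 and -0.45. The profiles most like that of HSPA1A, among probes well above background on at least 3 arrays, were those of LOC347411 and XIST (each r = 0.997), PLCB2 (r = 0.997), LY6K (r = 0.997) and RHOXF2 (r = 0.996). None of these 5 is a heat shock gene, but nothing is read from that. HSPA1A was at background without drug and bright with it, so other probes with the same step also reach a high r. Of all probes, 235 were well above background on all 6 treated arrays and on no mock array. The HSP40 gene DNAJA4 was among them. The ranking therefore cannot show whether HSPA1A moved apart from the heat shock genes.

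Between clone types, no gene of the 10 was called. In mock cells 8 of the 10 could be tested, HSPA1A and HSPA1L being too dim. None had an unadjusted p under 0.05 on its brightest probe (limma and the methods' t-test), against 11.2% of all probes with limma. The other HSPA8 probes differed by -1.23 and -1.09 (limma unadjusted p = 0.0129 and 0.0258, adjusted p = 0.371 and 0.412). No probe of the 10 genes was called, where 0.137% of 24753 probes were. After 5-aza-dC all 10 were tested. None was called, where 0.096% of 24998 probes were, and 4 had an unadjusted p under 0.05 with limma and 3 with the t-test, against 19.3% of all probes with limma. All 4 (HSPA1A, DNAJB1, HSPB1 and HSP90AA1) were lower in knockdown clones on their brightest probes. The other HSPB1 probes differed by 0.32 and -0.06, and the other HSP90AA1 probes by -0.29 and -0.55. For HSPA1A the treated values did not overlap, 0.23 to 0.93 against 1.33 to 2.18, with a mean difference of -1.07 that is given as a description. DNAJB1, at 1.71 to 1.81 against 2.38 to 2.86, differed by -0.90 (limma adjusted p = 0.162), and HSP90AA1 by -0.89 (adjusted p = 0.168). The treated control arrays all lay on slide 2, and so did 1 of the treated knockdown arrays. Within that slide the differences were -0.87 for HSPA1A, -0.84 for DNAJB1, -0.64 for HSP90AA1 and -0.24 for HSPB1, where the difference over all arrays was -0.85. These contrasts share arrays with the drug contrasts.

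No gene of the 10 was called in the interaction of clone type and 5-aza-dC (limma), where 0.0366% of 27287 probes were, and 1, HSPA1A, had an unadjusted p under 0.05, against 2.47% of all probes. The HSPA1A change was 8.55, 7.83 and 7.57 in the control clones and 6.99, 6.81 and 6.64 in the knockdown clones, a mean of 7.99 ± 0.51 against 6.82 ± 0.18 (SD over 3 clones each). The changes did not overlap, and the difference of -1.17 rests on mock readings at background. For HSPA2 the interaction was -0.04 (adjusted p = 1.00), with a 95% confidence interval from -0.90 to 0.82.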

How the data were processed

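Total RNA of 12 samples was hybridised to one-colour Agilent arrays. The authors deposited the scanner output of Feature Extraction 10.7 (10.7.3.1 in the file headers), whose processed signal is an intensity after background subtraction. The deposited table of the whole series held the same intensity values within 0.497%, and was used as an alternative. No count of reads exists for arrays, so their number limits the precision. Control spots and outlier spots were left out, log2 of the processed signal was taken and spots of a probe were averaged. The 75th percentile of the probe values of each array was then subtracted. A probe was tested where at least 50% of its spots were well above background on at least 3 arrays of the comparison. The study's methods name t-tests with Benjamini-Hochberg adjustment. Here limma 3.58.1 in R 4.3.3 (lmFit and eBayes, two-sided) was fitted on the 6 arrays of the comparison, or all 12 for the interaction, and p-values were adjusted over all probes tested, with 0.05 as the threshold. Confidence intervals are 95% limits of the same fit. The scripts were tested on simulated data.

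Groups came from the labels. The members and all lists were chosen with earlier results of these data known. Named genes are all members by each probe (the brightest, with the highest mean over the 12 arrays, standing for the gene), TET1, the genes of the other lists that were called or, beyond 6, moved most, all listed chromosome 6 neighbours, the cell type markers, and the 5 profiles most like HSPA1A. BAG3, CRYAB, IER5, SERPINH1, HSPD1, HSP90AB1, HSF1 and HSF2 were named after their values were seen. Each clone gave a mock and a treated array, so the clone number pairs these arrays. Deviations from the group means of same-numbered arrays correlated at 0.316, 0.242 and 0.213 in control and 0.525, 0.459 and 0.431 in knockdown clones over 27200 probes. The main fit left this pairing out, so its p-values and intervals are unpaired, and the clone number entered only as an alternative. Each array is 1 clone, so p-values measure the spread between clones. Alternatives were quantile scaling, normexp (offset 50) with quantile scaling, the array median or the percentile over detected probes as scale, other filters, slide or clone number as a block, all 12 arrays in 1 fit, the methods' t-test, and each clone left out. Leaving out a clone with a minimum of 2 arrays above background was chosen after seeing the data. Promoters and gene positions were read from RefSeq (GRCh38.p14), and probe positions from the array design.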

Additional observations from a re-analysis of the deposited data

Results flagged for a closer look

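HSPA1B moved up with 5-aza-dC in all 3 control clones and down in all 3 knockdown clones, and so every clone of one type went against every clone of the other. The difference of these changes was -0.52 on the log2 scale (SE 0.34, 95% confidence interval -1.27 to 0.23), and in the test of the interaction itself it did not pass (limma adjusted p = 1.00, unadjusted p = 0.152). The smallest control change was 0.04 and the knockdown changes lay between -0.16 and -0.08.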

How the results depend on the processing

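HSPA1A in knockdown clones was higher under every alternative that tested it, the lowest difference from the background reading being 3.13 with normexp, and the replicate block gave 6.82. With a clone left out and 3 arrays still required it could not be tested, having 2 treated arrays. Of the 10 genes, 2 were called with the drug in control clones. The count was 3 with quantile scaling or the median as scale, when HSPA6 was called lower (-0.97 and -1.01), 1 without a filter, with every array above background, with the slide block and with the t-test, 0 with replicate block and slide together, and 0 to 4 without 1 clone. The 4 came without control clone 3, when all mock arrays lay on slide 1 and all treated ones on slide 2. In knockdown clones the count of 2 became 1 with every array above background, with replicate block and slide, and with the t-test, and 0 to 2 without 1 clone. After drug, 4 genes were lower in knockdown clones without knockdown clone 2 (HSPA1A, DNAJB1, HSPB1, HSP90AA1), when clone types lay on separate slides, and 0 with all arrays. Probes called with drug in control clones numbered 1286, but 2539 with the median scale (median of all probes -0.23, 889 higher and 1650 lower), 427 with every array above background, 525 with slide, 0 with replicate block and slide, 358 by t-test and 0 to 6662 without 1 clone. In knockdown clones 519 became 267 with normexp, 50 with every array, 818 with all 12 arrays, 844 with slide added, 211 by t-test and 0 to 718 without 1 clone. Between mock clones 34 became 5 with every array, 84 with all 12 arrays, 115 with slide added, 4 by t-test and 8 to 94 without 1 clone. Between treated clones 24 became 10 with normexp, 39 with the median, 12 without filter, 0 with every array, 61 with slide, 187 with all 12 arrays, 37 with slide added, 3 by t-test and 0 to 7730 without 1 clone. For the interaction 10 became 4 without filter or with every array, 2 with the replicate block, 5 with slide added and 1 to 9 without 1 clone. Uncalled differences near 0 changed sign. With the drug in knockdown clones HSPA1L was -0.03 with quantile scaling, -0.01 with the median, -0.22 with replicate block and slide and -0.22 to 0.26 without 1 clone. HSPA6 was -0.19 with quantile scaling or all 12 arrays and slide, -0.08 with normexp, -0.26 with the median, 0 in the series table, -0.38 with slide, -0.22 with replicate block and slide and -0.22 to 0.29 without 1 clone (-0.07 without clone 3). DNAJB1 was 0.06 with quantile scaling, 0.05 with normexp, 0.07 with the detected percentile, and -0.35 to 0.23 without 1 clone. HSP90AA1 was -0.11 with the median, -0.14 with all 12 arrays and slide -0.03 with replicate block and slide and -0.03 to 0.26 without 1 clone. HSPA1B was 0.04 with slide. Between mock clones HSPB1 was 0.44 with slide, 0.27 with all 12 arrays and slide and -0.89 to 0.44 without 1 clone, HSP90AA1 was 0.21, 0.03 and -0.54 to 0.21 likewise, HSPA6 was 0.02 with all 12 arrays and slide and -0.33 to 0.10 without 1 clone, and HSPA8 was -0.08 with all 12 arrays and slide. Between treated clones HSPA8 was 0.02 with quantile scaling and -0.38 to 0.12 without 1 clone, HSPB1 was 0.10 with all 12 arrays and slide, and HSPH1 was -0.08 with slide, -0.11 with all 12 arrays and slide and -0.08 to 0.22 without 1 clone. In the interaction HSPH1 was 0.04 with quantile scaling or normexp and -0.32 to 0.01 without 1 clone, and HSPA2 was 0.04 with the detected percentile, 0.14 with slide, 0.08 with replicate block and slide and -0.29 to 0.20 without 1 clone. The cause of these shifts was not tested.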
